A study of Mus musculus with 46 samples.

Results

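The cytosolic ribosomal protein genes encode the proteins of the 60S and 40S subunits of the ribosome that translates nuclear mRNAs. They were taken from the RNA count table by their symbols: Rpl or Rps followed by a number and at most a short suffix, plus Rplp0, Rplp1, Rplp2 and Rpsa, without the S6 kinases and without symbols that carry -ps. By this rule 82 of the 31854 genes in the table were members, 50 of the large and 32 of the small subunit, and 77 of them passed the filter used for testing, a mean of more than 1 CPM (a gene's counts relative to its library's total, with the totals scaled by TMM). All 32 small subunit genes passed. The 5 that did not were Rpl29 (0 to 10 counts per library), the Rpl32-like Rpl32l (5 to 48) and 3 paralogs used mainly in other tissues. The paralogs were Rpl10l (0 to 1), Rpl39l (0 to 3) and Rpl3l (0 to 11). GENCODE lists Rpl32l as a processed pseudogene.

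A ribosome holds a single copy of most of its proteins, so cells make them in near equal numbers, and their mRNAs are among the most heavily translated in growing cells. Most of these mRNAs begin with a run of pyrimidines directly at the cap (a terminal oligopyrimidine or TOP motif), through which nutrient and growth factor signals acting on mTORC1 and the RNA-binding protein LARP1 hold back or release their translation. In the arcuate nucleus, AgRP neurons are hunger neurons that are active in fasting, and POMC neurons are satiety neurons that leptin activates.

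The libraries came from 6 to 11 week old male NuTRAP mice, in which Cre recombinase switches on a GFP-tagged L10a ribosomal subunit, the product of Rpl10a, and an mCherry-tagged RANGAP at the nuclear membrane. AgRP-IRES-Cre (NuTRAP AgRP) or POMC-IRES-Cre (NuTRAP Pomc) restricted both tags to the neuron named, and tagged ribosomes with their mRNA were pulled from the pooled arcuate nuclei of 4 mice per library with an antibody to GFP (TRAP). Mice were fed freely and given vehicle (fed: 3 AgRP and 2 POMC libraries), fasted for 18 to 20 hours and given vehicle (fasted: 4 and 2), or fasted and given 5 mg/kg leptin (leptin: 4 and 2), and tissue was collected 3 hours after the injection. Open chromatin was read by ATAC-seq in sorted AgRP nuclei of the same 3 states (2 libraries each) and in AgRP-positive and AgRP-negative nuclei of fed, uninjected mice (2 libraries each). The measurement is of mRNA bound to tagged ribosomes over a background of other arcuate RNA, so a value joins transcript level, ribosome binding and the yield of the pulldown, and fewer cells and less RNA per cell cannot be told apart.

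RNA depth lay between 25581041 and 54511107 counts per library. The 6 AgRP neuron markers summed to 1653 to 6442 CPM in AgRP and 110.3 to 201 CPM in POMC libraries, and the 3 POMC neuron markers to 56.3 to 97.7 and 1554 to 2920 CPM, so each line held the neuron its label names. Glial RNA was present in both lines, with 6 astrocyte markers at 416 to 915 CPM in AgRP and 654 to 1172 CPM in POMC libraries and 8 oligodendrocyte markers at 462 to 838 and 442 to 1016 CPM. In the AgRP line, libraries that shared a replicate number deviated from their state means together, and the 3 libraries of number 1 stood apart in the ribosomal protein genes themselves. The median differences between AgRP states and between the lines are given with and without those 3.

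The first bases of a ribosomal protein mRNA carry its TOP motif, so the windows around the RefSeq start sites are shown for the members that the fasting comparison turns on. Each runs 5′ to 3′ on the gene's strand, on GRCm38.p6, with 10 bases of promoter before the annotated start and 20 bases of the gene from its first exonic base on. The capitals mark a C with the pyrimidines that follow it, at least 4 of them. Only the run at the annotated start is marked or, where there is none, the nearest that begins within 10 bases of it. A run at the start is marked from the start base on, even where it begins earlier. The first 3 windows belong to the members with the highest log2 fold change of fasted against fed AgRP libraries, the next 3 to those with the lowest, and the last to the one member whose fed and fasted libraries did not overlap.
Rpl10a, chr17:28328461-28328490, plus strand: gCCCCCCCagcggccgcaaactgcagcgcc
Rpl27, chr11:101442235-101442264, plus strand: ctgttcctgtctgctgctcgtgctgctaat
Rplp0, chr5:115559457-115559486, plus strand: cgggtttcgaggaccgcctggttctcctat
Rpl36a, chrX:134585644-134585673, plus strand: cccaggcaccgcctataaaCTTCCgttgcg
Rps15a, chr7:118116128-118116157, minus strand: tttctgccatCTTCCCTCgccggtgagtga
Rpl22, chr4:152325716-152325745, plus strand: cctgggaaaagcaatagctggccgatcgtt
Rps24, chr14:24490668-24490697, plus strand: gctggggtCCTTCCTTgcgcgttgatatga

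Of these 7, Rps15a alone had the motif at the first base of the annotated transcript. Rps24 had it 2 bases before that base, Rpl36a 9 bases after it and Rpl10a 9 bases before it. Counted from the start base on, the longest run at a start belonged to Rpl15, a large subunit protein, and was 13 bases long. Rpl35, near the exit of the nascent chain, followed with 11. Counted from their first C before the start, the runs were 17 bases long in Rpl15 and 18 in Rpl35. In Rpl27a, whose start base is a T and not a C, a run of 20 bases crossed the start. These were named after their values were seen.
Rpl15, chr14:18270967-18270996, minus strand: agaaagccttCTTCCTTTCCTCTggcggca
Rpl35, chr2:39005112-39005141, minus strand: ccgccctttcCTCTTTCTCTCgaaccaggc

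A RefSeq promoter was matched for 62 of the 82 members. The TOP motif stood at the annotated start of 13 of them (21.0%), compared with 2.49% of all 27025 promoters, and within 10 bases of it in 35 (56.5%) compared with 29.1%. In the 300 bases from 250 before to 50 after the start, read on both strands, the ETS letters CCGGAAG were found in 24 members (38.7%; 9.12% of all promoters and 16.8% of those of genes tested), and the YY1 letters AAGATGGC in 5 (8.06%, 2.88% and 4.51%). The GC box GGGCGG was in 37 members (59.7%), against 35.9% of all promoters and 65.0% of promoters of tested genes. The letters TATAAA were in 7 members (11.3%), less often than in all promoters (14.2%) and more often than in those of tested genes (6.69%). The E-box CACGTG in 5 members (8.06%) and the NRF1 motif in 1 (1.61%) went the other way, with 7.24% and 0.977% of all promoters and 10.1% and 2.02% of those of tested genes. The interferon response motif was in 7 members (11.3%, 3.49% and 2.69%) and TTCNNNGAA of STAT factors in 3 (4.84%, 8.47% and 6.75%). The median log2 fold change of fasted against fed AgRP libraries, described in full further on, was 0.29 over the 12 tested members that had TOP at the start and 0.28 over the 46 that did not. With the replicate number as a block the order turned, with 0.16 and 0.20. A member was placed by a single annotated start base, and more members had the motif near that base than at it. The 46 can therefore include TOP mRNAs, so this split cannot show whether TOP mRNAs differed from others.

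Ribosomal protein genes took 0.256% to 0.482% of all counts, with counting intervals (95%, Wilson) no wider than 0.00222 percentage points to either side. In AgRP neurons the share was 0.256%, 0.416% and 0.330% in the fed libraries (replicates 1, 3 and 4), 0.296%, 0.429%, 0.448% and 0.369% in the fasted libraries (1 to 4) and 0.269%, 0.455%, 0.482% and 0.357% in the leptin libraries. In POMC neurons it was 0.286% and 0.276% fed, 0.295% and 0.258% fasted, and 0.307% and 0.260% with leptin. Within the AgRP line the highest share was 1.88 times the lowest, and the libraries were ordered by their replicate number more than by their state. Number 1 averaged 0.274% ± 0.0204 (SD, n = 3 states), number 4 0.352% ± 0.0197 (n = 3), number 2 0.442% ± 0.0180 (n = 2) and number 3 0.449% ± 0.0331 (n = 3), whereas the states averaged 0.334% ± 0.0802 fed (n = 3), 0.385% ± 0.0684 fasted (n = 4) and 0.391% ± 0.0973 with leptin (n = 4), and the libraries of the states overlapped. The AgRP state means cover unlike sets of numbers, since number 2, among the higher ones, has no fed library. The POMC means were 0.281% ± 0.00701, 0.277% ± 0.0260 and 0.283% ± 0.0331 (n = 2 each). The small subunit supplied 42.1% to 47.2% of the members' counts in every library.

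**Figure D1:**
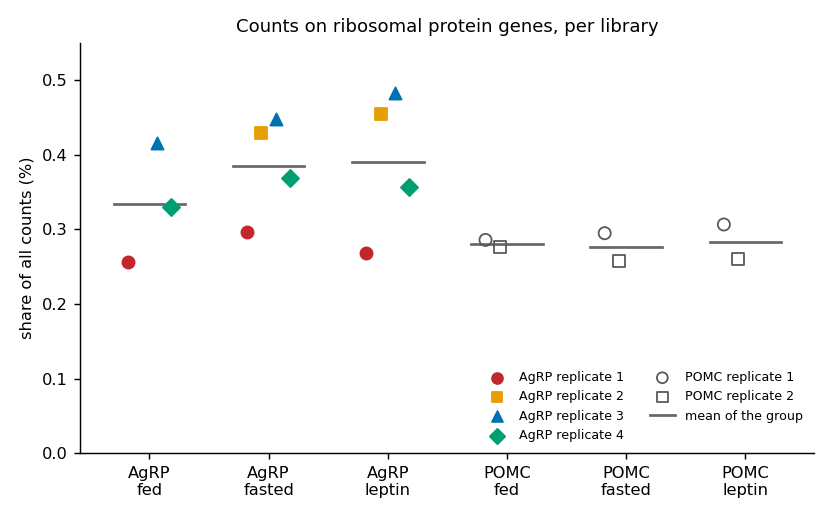
Share of all RNA counts taken by the 82 ribosomal protein genes (y axis, %) in each of the 17 libraries, by line and state (x axis), with a bar at the group mean and colour and shape giving the replicate number. The AgRP replicate 1 libraries lie lowest in every state, between 0.256% and 0.296%, and the AgRP replicate 2 and 3 libraries highest, between 0.416% and 0.482%.

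Per kilobase of the gene length in the count table, levels of single members were far from equal. Among the highest were Rpl8, a protein of the large subunit core, with a mean of 261 CPM per kb (202 to 357 over the 17 libraries), and Rpl4, also of the large subunit, at 192 (154 to 241). The lowest that passed the filter were Rpl21 at 2.11 (1.46 to 2.61), Rpl17 at the exit tunnel at 2.80 (1.05 to 5.59) and Rps24 at 2.99 (1.79 to 4.40). The ranges of Rpl8 and Rpl4 did not meet those of Rpl21, Rpl17 and Rps24, while within the upper pair and within the lower 3 they overlapped. The lengths in the table ran from 331 bases (Rps28) to 5134 (Rps15a) and included long alternative exons, 4384 bases for Rps24, which lowers its value per kb. Reads were also counted in a genome full of processed copies of these genes. Of the 31-base stretches of their annotated protein-coding exons, a median of 53.1% occurred once in the genome. The share was 91.8% for Rps15a, 17.8% for Rpl10a and 14.6% for Rpl29, which had too few counts to be tested, and no stretch of Rpl36 occurred once. Of the 80 members with an exon model, 35 were under 50%. How the counting split reads among such copies was not tested.

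The 3 AgRP libraries of number 1 lay apart from the other 8 in most members. Of 77 members, 2, 7 and 4 were above their mean over the AgRP libraries in fed, fasted and leptin library 1. In 53 of 77 members (68.8%) all 3 libraries lay below all 8 others, compared with 3.13% of all genes tested. The median log2 ratio of number 1 to the other numbers was -0.96 over the members and 0.0057 over all genes, and it was under -1 in 37 members (48.1%, all genes 0.888%).

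The lowest ratio was that of Rpl28, a large subunit protein, at 0.86, 0.57 and 0.68 CPM in the number 1 libraries (fed, fasted and leptin) and at 9.26 to 15.5 CPM in the other 8, a log2 ratio of -4.17. Rps29, a zinc finger protein of the small subunit, was at 0.83, 1.06 and 0.74 CPM in the number 1 libraries and at no less than 10.0 CPM in the others. For both genes the libraries of number 1 lay far below the rest, with no overlap. Low ratios were also those of Rpl10 (-2.76), which joins the large subunit late in its assembly, Rpl9 (-2.64), Rps27 (-2.23), Rpl12 (-2.19) at the base of the stalk and Rpl11 (-2.10), a partner of the 5S rRNA. Only 4 members were not lower, Rpl15 (0.19), Rpl21 (0.16), Rpl22 (0.11) and the paralog Rpl7l1 (0.02).

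The median ratio was -1.19 over the 34 members with up to 50% of their 31-base stretches found once in the genome and -0.75 over the 42 with more. Rpl28 itself had 71.9% and Rpl9 80.8% of its stretches found once, over annotated exons of 1428 and 2735 bases. The gene models counted were 496 and 725 bases long, so stretches found once can lie outside the counted exons. Whether low ratios were limited to repeated exons therefore cannot be told from these shares. Of related genes outside the rule, the elongation factor Eef1a1 had a ratio of -1.26 and Rack1 of the small subunit of -0.25. Pseudogenes went the other way in a pair of cases. Rpl14-ps1 was at 23.7, 28.6 and 25.2 CPM in the number 1 libraries and between 0.082 and 0.29 CPM in the other AgRP libraries, and at 0.058 to 0.14 CPM in the POMC libraries. Rps15a-ps6, far lower, was at 0.967, 0.784 and 0.738 CPM in the number 1 libraries and between 0.103 and 0.408 CPM in the other AgRP libraries, and neither pseudogene's sets overlapped. What set these libraries apart was not tested.

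**Figure D2:**
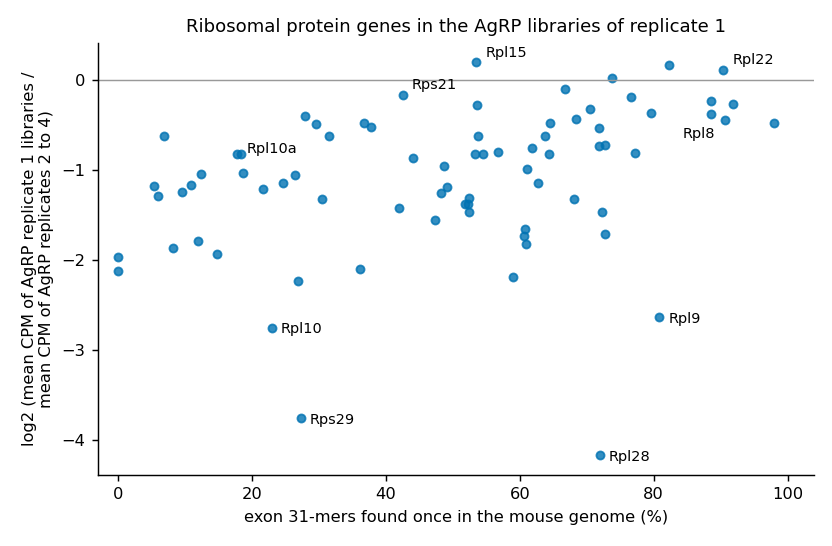
Log2 ratio of the mean CPM in the 3 AgRP replicate 1 libraries to the mean in the other 8 AgRP libraries (y axis) against the share of each gene's exon 31-mers found once in the mouse genome (x axis, %), 1 point per ribosomal protein gene. Nearly all points lie below 0, with Rpl28 at -4.17 and Rps29 at -3.76 lowest. The shares cover all annotated protein-coding exons, which can be longer than the gene model counted.

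The range between replicate numbers exceeded the range between states in 75 of 77 members (62.3% of all genes), with a median of 1.10 log2 units between numbers and 0.226 between states. Comparisons of states were therefore read both without the number, as in the study's model, and with it as a block.

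In fasted compared with fed AgRP neurons, the ribosomal protein genes were slightly higher as a group, and no member passed the test without the block. The median log2 fold change was 0.27 (1.21-fold; all genes 0.0175) and 75 of 77 members were higher in the fasted mean. None was called (edgeR adjusted p under 0.05 and a log2 fold change over 0.5 either way), compared with 3.89% of all genes, 5 members had an unadjusted p under 0.05, DESeq2 called 0, and the smallest adjusted p was 0.148 (Rplp0). With the replicate number as a block the median was 0.20, 74 members were higher, and 2 were called, Rplp0 and Rpl10a, with 4.4% of all genes called higher. At an adjusted p under 0.05 with no minimum fold, 31 members were higher in this blocked fit (40.3%), compared with 15.2% of all genes. The study's gene set enrichment analysis linked programs induced by fasting to the terms cytoplasmic translation and ribonucleoprotein complex biogenesis. That analysis reads whole gene sets, whereas the calls here are of single genes.

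Rpl10a, the tagged subunit of the NuTRAP allele, had the largest difference. It was at 33.0, 68.2 and 43.6 CPM in the fed libraries (replicates 1, 3 and 4), 60.2, 98.7, 107 and 67.5 CPM in the fasted libraries (1 to 4) and 53.3, 109.7, 136 and 63.4 CPM with leptin. The fed and fasted libraries overlapped, since fed 3 lay above fasted 1 and 4, but within each number the fasted library was higher, by 0.87, 0.64 and 0.63 on the log2 scale. The log2 fold change was 0.79 (SE 0.36, edgeR adjusted p = 0.254) without the block and 0.71 (SE 0.091, adjusted p = 0.000213) with it. Counts of the native gene, at chr17:28328471-28331033 on GRCm38, and of the tagged copy cannot be told apart.

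Rplp0 encodes the scaffold of the stalk, the arm of the large subunit that recruits the translation factors. Its values were 68.2, 113 and 95.5 CPM fed, 109.8, 147, 157 and 132 CPM fasted and 112, 161, 181 and 126 CPM with leptin. A single fed library, number 3, reached into the fasted range. The log2 fold change was 0.58 (SE 0.21, edgeR adjusted p = 0.148), and 0.54 with the block (SE 0.066, edgeR adjusted p = 0.00015). Its stalk partners Rplp1 and Rplp2 were also higher in the fasted mean and not called, with 33.6, 74.8 and 75.3 CPM fed and 42.6, 77.4, 79.5 and 88.1 CPM fasted for Rplp1.

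Rpl27, a large subunit protein, was at 2.47, 8.12 and 4.12 CPM fed and 3.95, 8.17, 11.5 and 5.58 CPM fasted, a log2 fold change of 0.58 (SE 0.49, edgeR adjusted p = 0.592). At the other end, Rpl36a was at 1.80, 4.31 and 3.02 CPM fed and 1.33, 2.94, 3.95 and 2.88 CPM fasted (-0.12, SE 0.44), Rps15a was at -0.03 (SE 0.26) and Rpl22, whose protein also binds RNA outside the ribosome, at 0.02 (SE 0.08). The Rpl22 values of the 7 libraries lay between 19.6 and 23.3 CPM.

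Rps24, a small subunit protein mutated in Diamond-Blackfan anemia, was the one member whose fasted libraries all lay above its fed libraries, as 9.81% of all genes did. It was at 12.4, 13.6 and 14.2 CPM fed and 14.4, 16.0, 15.6 and 15.9 CPM fasted, so the highest fed library lay just below the lowest fasted one. Within the 3 numbers that have both states, 58 of 77 members (75.3%) were higher fasted in each number, compared with 29.8% of all genes, and 1 was lower in each. The median within-number differences were 0.24, 0.15 and 0.27 for numbers 1, 3 and 4.

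By subunit, the 45 large subunit genes had a median log2 fold change of 0.26 and the 32 small subunit genes of 0.28. Of the fixed lists, 3 of 3 stalk proteins, both partners of the 5S rRNA (Rpl5 and Rpl11), 6 of 6 proteins around the exit tunnel and 5 of 5 along the mRNA path of the small subunit were higher in the fasted mean, none called without the block. The 4 paralogs that passed the filter, Rpl22l1, Rpl7l1, Rps4l and Rps27l, were higher as well, with a median of 0.32.

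Without the block, the size of the members' difference depended on single fed libraries. Number 2, which has no fed library, entered on the fasted side alone. Without fed library 1, which has the lowest levels, the median fell to 0.04 and 45 of 77 members were higher, and without fed library 3 it was 0.51. With every number 1 library left out the median was 0.20, 73 members were higher and 0 were called, and with the block as well it was 0.20 with 2 called. The 6 astrocyte, 8 oligodendrocyte and 5 microglia markers tested had the opposite direction, with 0, 1 and 0 of them higher in the fasted mean and none called. Their sums, taken over all 7 listed markers for microglia, were 426 to 915, 462 to 759 and 18.4 to 40.8 CPM in fasted libraries. In fed libraries the sums were 531 to 866, 524 to 830 and 24.3 to 43.3 CPM. Of the other lists, 2 of 4 tanycyte, 2 of 5 endothelial and 0 of 3 POMC neuron markers were higher, and the 6 AgRP markers were all higher in the fasted mean, again with none called. The study reported Agrp, Npy, Acvr1c and Otp as induced by fasting in AgRP neurons, so the fit without the block missed genes that the study called. Why the fits differ was not tested. With the block, 5 of the AgRP markers were called higher, and Aqp4 of astrocytes, Mog of oligodendrocytes and Cx3cr1 and P2ry12 of microglia lower. The part of these in the members' difference was not tested.

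**Figure D3:**
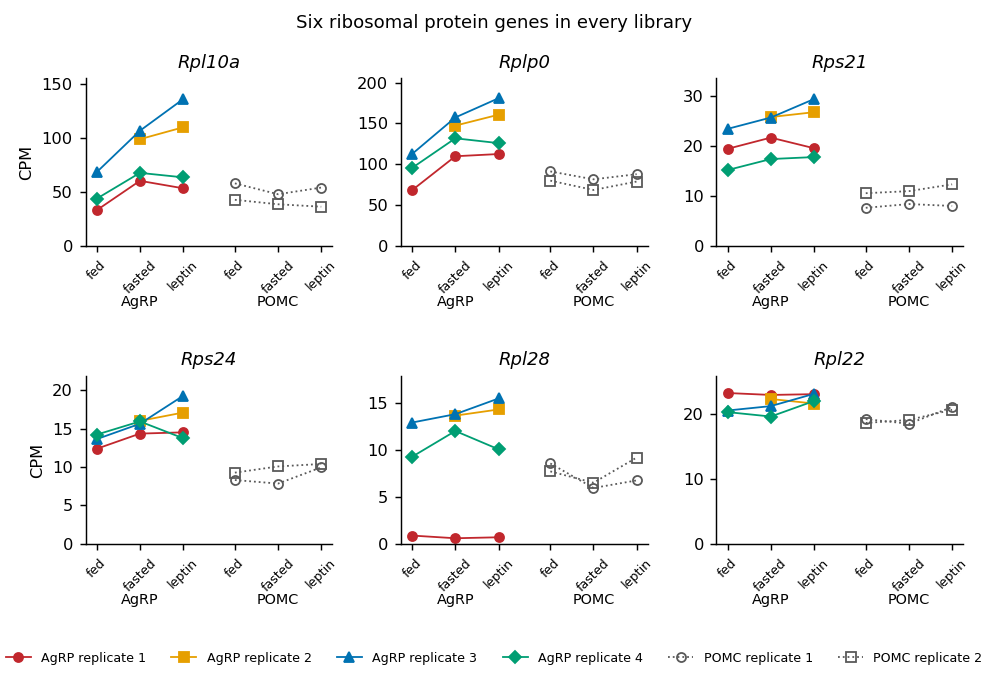
CPM (y axis, from 0) of 6 ribosomal protein genes in every library by line and state (x axis), with lines joining libraries of the same replicate number. Rpl10a and Rplp0 are higher fasted than fed within each AgRP number, Rps21 is higher in every AgRP library than in any POMC library, Rpl28 lies under 1 CPM in the AgRP replicate 1 libraries, and Rpl22 stays between 18.5 and 23.3 CPM in all libraries.

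In AgRP neurons of fasted mice, no ribosomal protein gene passed the test between leptin and vehicle 3 hours after injection. The median log2 fold change was 0.0095, 42 of 77 members were higher, none was called (all genes 1.83%; no member had an unadjusted p under 0.05, and DESeq2 called 0), and the smallest adjusted p was 0.9999. The largest differences were 0.20 for Rpl14 (SE 0.32) and -0.18 for Rpl41 (SE 0.29), the smallest protein of the ribosome. The within-number medians were -0.15, 0.09, 0.11 and -0.09 for numbers 1 to 4, so the direction differed between numbers. Without the libraries of number 1 the median was 0.03 with 57 members higher and none called, and leaving out single libraries gave -0.15 (without fasted library 1) to 0.21 (without leptin library 1).

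Leptin was also compared with fed libraries, which are the same fed libraries as above. The median was 0.28, 76 of 77 members were higher and none was called (5.48% of all genes; 5 members had an unadjusted p under 0.05 and DESeq2 called 1, Rplp0). Rpl10a was at 0.91 (SE 0.36, edgeR adjusted p = 0.149) and Rplp0 at 0.66 (SE 0.21, adjusted p = 0.0765). With the block 3 members were called, Rplp0 (0.62), Rpl10a (0.78) and Rpl27 (0.53), with 5.34% of all genes called higher, and 25 members were higher with no minimum fold (17.5% of all genes). In 47 of 77 members (61.0%) leptin was above fed within each of the 3 numbers, compared with 29.8% of all genes, and in Rps20, a small subunit protein, leptin libraries of 28.7 to 34.9 CPM lay above fed libraries of 23.6 to 28.7 CPM. Rps20 was the one member (1.30%) whose leptin libraries all lay above its fed ones, as 10.7% of all genes did.

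Without the block this median, too, depended on single libraries. It fell to 0.04 with 45 members higher without fed library 1 and to 0.14 without leptin library 3, and was 0.51 without fed library 3 and 0.48 without leptin library 1. Without the libraries of number 1 it was 0.24 with 75 members higher and 0 called, and with the block as well 0.25 with 2 called.

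In POMC neurons the ribosomal protein genes were not higher as a group after fasting. The median log2 fold change of fasted against fed was -0.05, 33 of 77 members were higher, and none was called, nor was any of the genes tested (0%; no member had an unadjusted p under 0.05, and DESeq2 called 0). Rps23, at the decoding centre, was lowest, with 1.99 and 2.16 CPM fed and 1.65 and 1.30 CPM fasted (-0.48, SE 0.24), followed by Rpl28 (-0.39, SE 0.20) and Rpl36 (-0.30, SE 0.15). The highest were Rpl5 (0.15, SE 0.13) and Rps20 (0.14, SE 0.23). In 13 members (16.9%) both fasted libraries lay below both fed ones, compared with 13.3% of all genes.

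Rpl10a was at 57.8 and 42.6 CPM fed, 47.7 and 38.5 CPM fasted and 53.9 and 36.2 CPM with leptin in POMC libraries, and Rplp0 at 91.2 and 79.9, 81.5 and 68.4, and 87.8 and 78.8 CPM. For both genes the fasted library was below the fed one in each number. Leptin against fasted had a median of 0.06 and no call (0% of all genes), and in 20 members (26.0%; 9.77% of all genes) both leptin libraries lay above both fasted ones, among them Rpl21 (0.37, SE 0.20) and Rpl28 (0.35, SE 0.20). Leptin against fed had a median of 0.01 and again no call (0%). Over all genes, an unadjusted p under 0.05 was reached by 282, 151 and 282 genes in the 3 POMC comparisons, and DESeq2 called 3, 10 and 7, none of them a member.

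**Figure D4:**
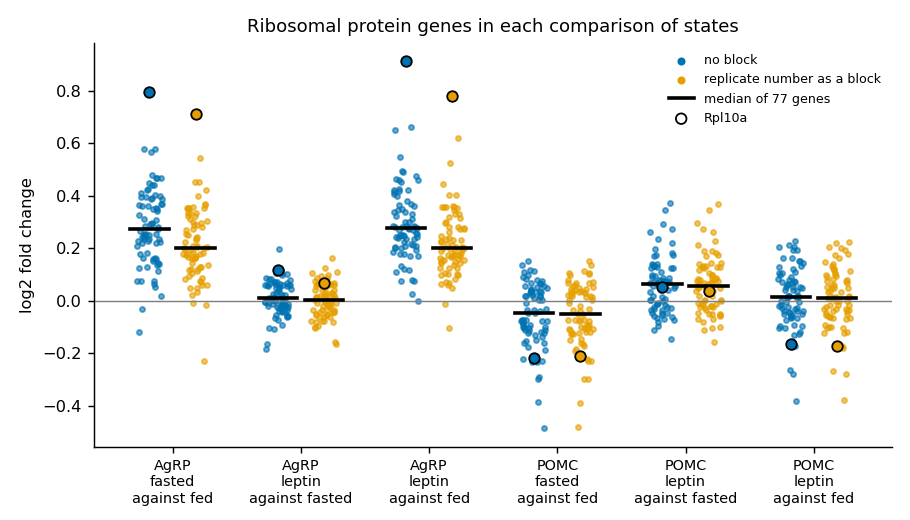
Log2 fold change (y axis) of the 77 ribosomal protein genes tested in each comparison of states (x axis), without a block (blue) and with the replicate number as a block (orange), with a bar at the median and Rpl10a ringed. The AgRP medians against fed are 0.27 and 0.28 without the block, and those of the POMC comparisons lie between -0.05 and 0.06.

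The fasting difference itself was compared between the lines by an interaction term. It was larger in AgRP in 74 of 77 members, with a median of 0.31, and none was called (0.164% of all genes). With the replicate number within each line as a block, 6 members (7.79%) were called, all higher in AgRP, compared with 4.33% of all genes called higher: Rpl10a (0.91, SE 0.15, edgeR adjusted p = 0.00136), Rplp0 (0.73, SE 0.10, adjusted p = 0.000722), Rpl36 (0.64), the paralog Rps27l (0.58), Rpl34 (0.56) and Rps4l (0.53), which GENCODE lists as a transcribed processed pseudogene. Without the AgRP libraries of number 1 this blocked fit called 4, and the median was 0.22 without the block and 0.25 with it. For the leptin effect the median difference was -0.05 and no member was called (0.0819% of all genes).

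Between the lines, ribosomal protein genes were higher in AgRP than in POMC libraries, by a median log2 fold change of 0.18 fed, 0.51 fasted and 0.45 with leptin, in 60, 74 and 73 of 77 members. The fed median turned to -0.07 without AgRP fed library 3. With the replicate number as a block across both lines the fed median turned to -0.16, with 31 members higher, and the others fell to 0.13 fasted and 0.11 with leptin, with 48 and 46 higher. The numbers were not taken to pair libraries of different lines. Without the AgRP libraries of number 1, and with no block, the medians were 0.45, 0.71 and 0.70. Called higher in AgRP were 2 members fed (2.60%; all genes 1.7%), 13 fasted (16.9%; all genes 8%) and 8 with leptin (10.4%; all genes 6.41%), and no member was called lower. Rps24 and Rps21 were called in all 3 states.

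Rps21, a small subunit protein with 42.5% of its 31-base stretches found once in the genome, had the largest called difference. It was at 19.4, 23.4 and 15.2 CPM in AgRP fed, 21.7, 25.8, 25.7 and 17.4 CPM fasted and 19.5, 26.7, 29.4 and 17.8 CPM leptin libraries, and at 7.61 and 10.5, 8.36 and 10.9, and 7.98 and 12.3 CPM in the POMC libraries of the same states. No AgRP library was as low as any POMC library. The log2 fold changes were 1.09 (SE 0.28, edgeR adjusted p = 0.0460), 1.23 (SE 0.27, adjusted p = 0.0071) and 1.20 (SE 0.27, adjusted p = 0.00899).

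Rps24 lay between 12.4 and 19.3 CPM in AgRP and between 7.84 and 10.4 CPM in POMC libraries, again without overlap, with log2 fold changes of 0.61, 0.79 and 0.67 (edgeR adjusted p = 0.0389, 0.00235 and 0.00729). Among the others called fasted were Rpl32 (0.81), Rpl30 (0.95), the stalk proteins Rplp0 (0.87) and Rplp2 (0.91) and the paralogs Rps4l (0.75) and Rpl22l1 (0.65). Rplp2 was at 35.0, 45.5, 54.8 and 42.8 CPM in fasted AgRP and 22.04 and 25.4 CPM in fasted POMC libraries. Rps4l, at 30.0 to 38.5 CPM in fasted AgRP and 18.3 and 22.1 CPM in fasted POMC libraries, had no exon model in the check of repeated sequence, and how its reads were split from those of Rps4x was not tested.

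These counts depended on a few libraries. Without the AgRP libraries of number 1 they were 1 fed (Rps14, 0.59; 1.01% of all genes), 49 fasted (63.6%; 5.46% of all genes) and 42 with leptin (54.5%; 4.67% of all genes). The AgRP libraries of number 4 and the POMC libraries of number 2 stood apart together: Rps15a was at 214, 226 and 228 CPM in the first set and at 234, 250.1 and 287 CPM in the second, and at 130.2 to 153 CPM in the other 11 libraries. Slc1a2 took 1.93% to 2.42% of counts in both sets and 0.240% to 0.641% in the other 11. The 6 astrocyte markers summed to 866 to 915 CPM in the first set and 416 to 648 CPM in the other AgRP libraries. In POMC libraries they summed to 1035 to 1172 CPM in the second set and 654 to 759 CPM in the others. The part of this in the line comparison was not tested. Without both sets 1, 4 and 3 members were called, and without number 1 as well 34, 57 and 58. Line and library set cannot be told apart beyond this. Leaving out a single library gave 0 to 2 called members fed, 3 to 16 fasted and 1 to 15 with leptin. In the fasted state 3 were called without either fasted POMC library and 7 without AgRP fasted library 3. With leptin 15 were called without AgRP leptin library 1, 12 without AgRP fed library 3 or leptin library 4, 4 without AgRP leptin library 2, 2 without AgRP leptin library 3 or POMC leptin library 1, and 1 without POMC leptin library 2. In the fed state the count was 0 without AgRP fasted library 1, 2 or 3, fed library 1 or 3, leptin library 2 or either POMC fed library, and 1 without AgRP fed library 4, AgRP leptin library 1 or POMC fasted library 1. Rps24 was called in the fasted state under all of these.

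In fasted against fed AgRP libraries, without the block, the other lists of translation genes had smaller median differences than the 0.27 of the ribosomal proteins. With the block the ribosomal protein median was 0.20, and blocked medians of the other lists are not reported here. In the fasted mean 32 of 35 initiation factors were higher (median 0.17), 8 of 9 elongation and termination factors (0.15), 15 of 17 other TOP mRNAs (0.16) and 30 of 40 ribosome assembly factors (0.13), with none called. Mitochondrial ribosomal proteins, which build the separate ribosome of mitochondria, were higher in 48 of 67 with a median of 0.09. Of 15 regulators of mTORC1 and TOP translation 9 were higher, and Ddit4, an inhibitor of mTORC1, was called higher, at 15.7 to 18.7 CPM fed and 29.3 to 35.3 CPM fasted (0.88, SE 0.13, edgeR adjusted p = 0.0030). The difference between these lists and the members was not tested.

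Fau and Rack1, which encode ribosomal proteins outside the symbol rule, had fasting differences of 0.41 and 0.29, and neither was called. In leptin against fed libraries, where 5.48% of all genes were called, the assembly factor Nop58 was higher, with 38.7 to 45.9 CPM fed and 61.2 to 81.7 CPM with leptin (0.82, SE 0.10, edgeR adjusted p = 0.0013). The poly(A)-binding protein Pabpc1, itself encoded by a TOP mRNA, was higher by 0.62 (SE 0.086, adjusted p = 0.0021) and Taf1d, a subunit of the RNA polymerase I selectivity factor, by 0.70 (adjusted p = 0.0265). The leptin mice were also fasted, so this comparison does not separate leptin from fasting. In fasted AgRP against POMC libraries, 6 of 40 assembly factors (Gar1, Rrs1, Ltv1, Pno1, Gnl2 and Gnl3) and 8 of 67 mitochondrial ribosomal proteins were called higher, beside the 8% of all genes given above.

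ATAC-seq peaks lay within 500 bases of a start site for 77 of 82 members, 79 peaks in the table of states and 78 in that of sorted nuclei. The 5 without a peak were Rps4l and the 4 poorly counted genes Rpl32l, Rpl10l, Rpl39l and Rpl3l, while Rpl29 had one. In fasted compared with fed nuclei 76 of 79 peaks were lower, with a median log2 fold change of -0.21 (quartiles -0.35 and -0.14). The 12869 peaks at other start sites had a median of -0.23, close to that of the members, and peaks away from start sites were at 0.08.

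Called lower in fasting were 3 peaks, 3.80% of the members' peaks, compared with 8.88% of all peaks and with 477 of the 12869 other peaks at start sites. The peak of Rps15a (chr7:118115652-118116598, mm10) was at 38.9 and 41.4 CPM fed and 28.7 and 22.5 CPM fasted (-0.66, SE 0.19, edgeR adjusted p = 0.0137). That of Rpl19, at the exit tunnel (chr11:98026397-98027531), was at 31.3 and 36.7 CPM fed and 19.8 and 23.9 CPM fasted (-0.65, SE 0.20, edgeR adjusted p = 0.0212), and that of Rps26 (chr10:128626189-128627139) at 29.3 and 30.2 CPM fed and 18.9 and 21.3 CPM fasted (-0.57, SE 0.20, edgeR adjusted p = 0.0418). The groups did not overlap in any of the 3, which were picked by this same test. The RNA of Rps15a was at -0.03 in the same comparison. The Rpl10a peak (chr17:28327626-28329436) was at 34.9 and 55.7 CPM fed and 43.6 and 48.0 CPM fasted (-0.01, SE 0.19).

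Leptin against fasted nuclei had a median of -0.03 and no called member peak (3.08% of all peaks; no member peak had an unadjusted p under 0.05). Leptin against fed had a median of -0.27, with other start sites at -0.28, and 77 of 79 peaks were lower. Called lower were 3, compared with 973 of 12869 other peaks at start sites and 13.4% of all peaks. Among them were Rps18 (-0.66, edgeR adjusted p = 0.00895), whose peak also covers the start of Vps52, and Rpl19 (-0.55). In the sorted nuclei AgRP-positive libraries were lower than AgRP-negative ones in 72 of 78 peaks, with a median of -0.25 and other start sites at -0.20. Called lower were 3, compared with 1629 of 12527 other peaks at start sites and 15.6% of all peaks. Among them were Rpl3, the protein near the peptidyl transferase centre, with 30.2 and 32.2 CPM in negative and 15.9 and 21.2 CPM in positive nuclei (-0.75, SE 0.17, edgeR adjusted p = 7.7e-05), and Rps4x (-0.84). Positive and negative nuclei came from the same pooled samples, a pairing that this test did not use.

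The fed ATAC-seq library 2 had the largest share of its counts in peaks at start sites, 47.4% compared with 38.2% to 43.2% in the other 5. Without it 28 of 79 member peaks were higher in fasting and the median was -0.10. Leaving out other single libraries changed the called member peaks to 5 (without fed library 1) or 1 (without fasted library 1) for fasting and to 2 without any of the others. For leptin against fed they were 7 without fed library 1, 0 without leptin library 2 and 1 without fasted library 2, and for the sorted nuclei 11 without AgRP-negative library 1 and 6 without AgRP-positive library 2.

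**Figure D5:**
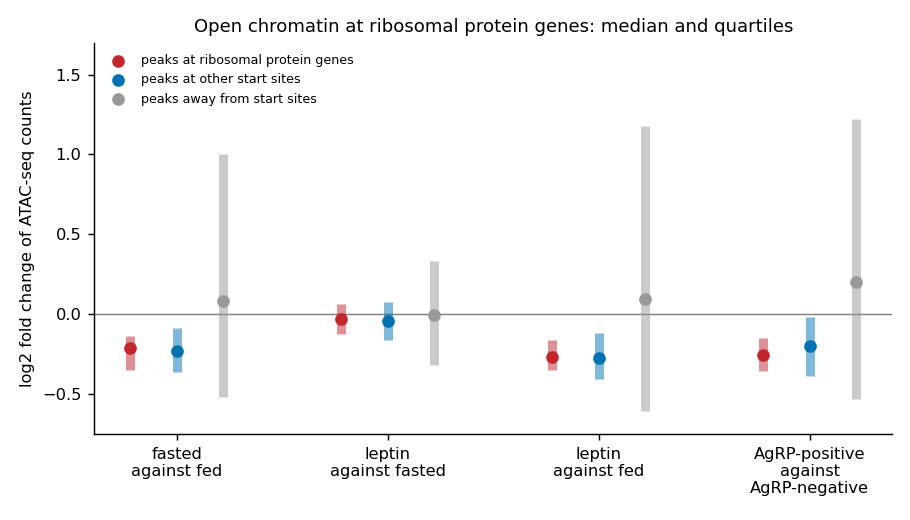
Log2 fold change of ATAC-seq counts (y axis) in 4 comparisons (x axis) for peaks at ribosomal protein genes (red), peaks at other start sites (blue) and peaks away from start sites (grey), with points at the median and bars from the lower to the upper quartile. The red and blue medians are at -0.21 and -0.23 in fasted against fed, at -0.27 and -0.28 in leptin against fed and at -0.25 and -0.20 in the sorted nuclei.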

How the data were processed

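RNA-seq libraries of ribosome-bound mRNA (17) and ATAC-seq libraries (10) were analysed; RNA of the whole arcuate nucleus and CUT&RUN were not analysed here. The read counts were deposited by the authors as whole, unnormalised counts per gene or peak: RNA was depleted of rRNA, tagmented without strand, aligned to mm10 with HISAT2 and its primary alignments counted over exons with featureCounts, and ATAC-seq reads were aligned with Bowtie2, deduplicated, called with MACS2 and counted with bedtools. Tool versions were not given in the sources used here.

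Groups came from the labels, and replicates of a group are separate pools of 4 mice. AgRP-positive and AgRP-negative nuclei were sorted from the same pools, which the main test treated as unpaired. Each pooled library gives 1 value, so p-values measure the spread between pools. Features with a mean over 1 CPM were scaled by TMM and tested with edgeR's quasi-likelihood test (4.0.16, R 4.3.3), with Benjamini-Hochberg adjustment over all 13401 (AgRP), 13412 (POMC) or 13435 (both lines) genes, or 102237 and 66560 peaks. A gene or peak was called when its adjusted p was below 0.05 and its log2 fold change exceeded 0.5 in either direction. Standard errors were derived from the test statistic. DESeq2 1.42.0, other scalings, no filter, a replicate block and leaving out libraries were alternatives, and the fits were tested on simulated data. A peak was assigned to a gene within 500 bases of a GENCODE start site. Intervals on shares cover counting error only.

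AgRP replicate numbers were taken to pair libraries: deviations from the state means correlated at 0.536 to 0.814 over the 10 same-number pairs and had a median of -0.236 over the other 30. What a number marks was not given in the sources used here. The members, the other gene lists and the tests were chosen with earlier results of these data known. Genes named are Rpl10a, called members (up to 8 by adjusted p), the 3 largest and smallest differences per comparison of states, the highest and lowest levels per kb, the paralogs, members whose fed and fasted libraries did not overlap, and up to 3 called genes or peaks each way from the other lists. Genes named for the libraries of number 1, the other genes called between lines, and Rps15a and Slc1a2 across libraries were chosen after their values were seen. Some genes that this rule names are not reported here.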

Additional observations from a re-analysis of the deposited data

Results flagged for a closer look

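In the fasted AgRP group, Rpl28 in library 1 was at 0.573 CPM, while the other 3 fasted libraries lay at 12.0 to 13.8 CPM. The gap to the nearest other library took 0.864 of the group's range, above Dixon's 95% critical value of 0.829 for 4 libraries. Of the 40 groups of values tested this way, chance would exceed the critical value in about 1 of 20. The leptin and fed libraries of the same number were also under 1 CPM.

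The fasting difference was larger in AgRP than in POMC neurons, by the interaction term with the replicate number within each line as a block, for Rpl10a (0.914 on the log2 scale), Rplp0 (0.726), Rpl36 (0.642), Rps27l (0.580), Rpl34 (0.556) and Rps4l (0.526). None of the 6 was called without the block.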

How the results depend on the processing

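Leaving out single libraries or sets of libraries gave 0 to 4 called members for AgRP fasted against fed and for leptin against fed, 0 to 34 for AgRP against POMC in the fed state, 3 to 57 in the fasted state, 1 to 58 with leptin, and 0 to 4 for the difference in the fasting effect; the upper ends of the line comparisons come from leaving out AgRP replicates 1 and 4 with POMC replicate 2, chosen after seeing the data. For peaks the counts were 1 to 5 (fasted against fed), 0 to 7 (leptin against fed) and 3 to 11 (sorted nuclei). Rpl36a in AgRP fasting ranged from -0.40 to 0.24 and was reversed without fasted library 1 (0.11), fed library 3 (0.24) or number 3 (0.0011), and Rpl10a in POMC fasting from -0.43 to 0.023, reversed without fed library 1. The cause was not tested.

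With no filter, 1 member was called for leptin against fasted AgRP, 1 for leptin against fed, 1 between lines fed and 5 with leptin; DESeq2 called 1 for leptin against fed, 16 between lines with leptin and 5 sorted peaks. RLE scaling gave 7 sorted peaks and library size alone 1 peak for leptin against fed. With no minimum fold, 6, 9 and 18 peaks were called for fasted against fed, leptin against fed and sorted nuclei.

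With the replicate block, fasted and leptin against fed called 2 and 3 members, 31 and 25 with no minimum fold, 1 and 2 on library size alone, and 2 and 3 on TMM without the members. The fasting difference between lines called 6, then 12, 4 and 6. Across lines, in POMC and in ATAC-seq the numbers were not taken to pair libraries. For the sorted nuclei this leaves out a pairing, since the study took AgRP-positive and AgRP-negative nuclei from the same pooled samples. Same-number correlations had a median of 0.083 over 15 pairs across lines and 0.155 over 6 in ATAC-seq; in POMC the 6 lay at 0.733 to 0.770, but only 2 numbers were shared, too few to take them as pairs. The block within each line, used for the fasting difference between lines, includes the POMC numbers. There the block called 2, 15 and 11 members between lines (fed, fasted and leptin), 22 members fasted and 19 with leptin on library size alone, 17 with leptin at no minimum fold, and for peaks 4 for fasted and 5 for leptin against fed, and 10, 12 and 35 at no minimum fold. In leptin against fasted, in the POMC comparisons and in the leptin difference between lines the count of called members was 0 with and without the block.

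Counting error weighs most on members with few counts, such as Rpl17 with 28 to 238 counts per library.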
